A study of Mus musculus with 10 samples.

Results

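The 41 genes described here drive or mark the cell division cycle: cyclins and their kinases, replication proteins, mitotic regulators and the proliferation antigen Mki67. They were chosen by symbol as a list of textbook cell cycle genes, and all 41 were found among the 51789 genes of the count table through their GENCODE M21 names. RNA was measured in cardiomyocytes, the contractile muscle cells of the heart, isolated at day 4 after myocardial infarction (MI) made by permanent occlusion of the left coronary artery. Cells came from 5 mice with cardiomyocyte-specific overexpression of the kinase GRK5 (TgGRK5-MI) and from 5 non-transgenic littermate control mice (NLC-MI), so both groups carried the infarct and neither was sham-operated. Mice of both sexes entered the study's operations at an age of 8 to 12 weeks. The sex and age behind each library, the strain and the promoter of the transgene were not given in the sources used here, and each library is taken as 1 mouse.

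A cell passes from growth to DNA synthesis when D-type cyclins with CDK4 and CDK6, and then E-type cyclins with CDK2, inactivate the retinoblastoma protein and free E2F factors. The MCM helicase opens replication origins, A-type cyclin accompanies DNA synthesis, and B-type cyclins with CDK1 start mitosis, which ends when the anaphase-promoting complex (APC/C) with CDC20 destroys them. Adult mouse cardiomyocytes are known to divide rarely, while macrophages, fibroblasts and endothelial cells divide in the healing infarct, so RNA of these genes in a cardiomyocyte preparation can come from several cell types. In bulk RNA, fewer cells of a type and less RNA per cell cannot be told apart.

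Many genes of late cell cycle share promoter letters that recruit the DREAM and B-MYB-MuvB complexes (the CHR element) and the factor NF-Y (the CCAAT box), while genes of DNA synthesis often hold E2F sites. The promoters of Aurka, Cenpa, Birc5, Ccnb2 and Cdk1 are shown because they belong to the mitotic genes with the smallest p-values, or to the core mitotic cyclin and kinase. They are RefSeq windows on GRCm38.p6, 5′ to 3′ on the gene's strand, from 250 bases before to 50 after the annotated start, with the CHR letters (TTTGAA or TTCGAA) and the CCAAT letters in capitals on either strand. The windows lie at chr2:172370521-172370820 (minus strand) for Aurka, chr5:30666636-30666935 (plus strand) for Cenpa, chr11:117848987-117849286 (plus strand) for Birc5, chr9:70421505-70421804 (minus strand) for Ccnb2 and chr10:69352863-69353162 (minus strand) for Cdk1.
Aurka: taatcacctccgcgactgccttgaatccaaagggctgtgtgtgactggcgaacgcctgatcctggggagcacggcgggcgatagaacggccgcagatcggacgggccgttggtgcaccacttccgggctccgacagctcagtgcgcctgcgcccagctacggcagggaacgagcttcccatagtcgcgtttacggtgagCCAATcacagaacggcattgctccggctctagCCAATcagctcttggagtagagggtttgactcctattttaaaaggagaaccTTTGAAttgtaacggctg
Cenpa: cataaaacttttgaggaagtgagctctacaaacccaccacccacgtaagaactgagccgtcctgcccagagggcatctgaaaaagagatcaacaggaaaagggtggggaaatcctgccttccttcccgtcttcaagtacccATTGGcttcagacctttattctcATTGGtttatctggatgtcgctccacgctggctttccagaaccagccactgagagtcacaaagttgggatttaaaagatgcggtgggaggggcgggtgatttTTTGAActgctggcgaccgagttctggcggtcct
Birc5: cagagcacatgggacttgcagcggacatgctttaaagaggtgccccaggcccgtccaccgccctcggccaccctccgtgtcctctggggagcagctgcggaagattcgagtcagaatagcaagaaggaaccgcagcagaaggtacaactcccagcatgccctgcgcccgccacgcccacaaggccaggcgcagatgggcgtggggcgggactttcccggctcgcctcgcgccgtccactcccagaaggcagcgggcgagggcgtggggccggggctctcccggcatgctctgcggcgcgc
Ccnb2: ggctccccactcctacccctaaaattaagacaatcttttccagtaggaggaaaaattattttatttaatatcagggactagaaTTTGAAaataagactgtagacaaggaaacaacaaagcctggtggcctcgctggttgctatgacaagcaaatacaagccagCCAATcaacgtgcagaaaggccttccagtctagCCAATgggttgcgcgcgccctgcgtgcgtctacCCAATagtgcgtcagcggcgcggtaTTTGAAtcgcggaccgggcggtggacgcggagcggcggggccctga
Cdk1: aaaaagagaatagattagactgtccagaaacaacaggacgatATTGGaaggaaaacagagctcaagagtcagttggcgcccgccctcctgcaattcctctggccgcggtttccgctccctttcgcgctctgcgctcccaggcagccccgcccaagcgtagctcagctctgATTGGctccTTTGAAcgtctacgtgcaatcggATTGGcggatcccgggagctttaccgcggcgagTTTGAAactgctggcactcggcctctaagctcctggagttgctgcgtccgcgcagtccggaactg
Aurka, Cenpa and Ccnb2 each hold a CHR match just after the start, beginning at base 33, 17 and 5, with CCAAT letters at 2, 2 and 3 places before it. Ccnb2 holds another CHR match from base -167. Cdk1 holds a CHR match from base -15 and another from base -71, 3 CCAAT matches, and E2F letters (GGCGGGAA, TTGGCGC or TTCGCGC, either strand) at 2 places. The Birc5 window holds none of the 3 motifs.

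RefSeq windows were at hand for 32 of the 41 genes. CHR letters were found for 16 of these 32 genes (50%) and for 21.7% of the 27025 genes with a window, where a gene counted if any of its windows held a match and where CHR and CCAAT letters could share bases. All 16 also held CCAAT letters, a pair present for 8.61% of all genes. CCAAT letters, with or without CHR letters, were found for 25 of the 32 genes against 41.1% of all genes. E2F letters were found for 8 of the 32 (25%) against 6.76%. Of 88 genes with a window in a wider cell cycle list, described below, 47.7% held CHR, 61.4% CCAAT and 34.1% E2F letters. By role, CHR letters were present in 4 of 5 windows of mitotic entry genes, 5 of 7 of chromosome and spindle genes and 3 of 4 of passenger complex and APC/C genes, but in 0 of 3 of the D-type group (Ccnd3, Cdk4 and Cdk6). E2F letters stood in 4 of the 8 replication windows (Mcm3, Mcm5, Mcm6 and Mcm7).

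Levels are CPM, counts scaled to a common library size with edgeR's TMM factors, and are given per kilobase of exon where genes are compared with each other. Totals ran from 7968779 counts (NLC-MI 3) to 23381527 counts (NLC-MI 2), and the 41 genes took between 0.0741% (NLC-MI 5) and 0.191% (TgGRK5-MI 4) of a library. All 41 passed the filter on low counts, with between 27 counts (E2f8 in NLC-MI 5) and 3808 counts (Ccnd2) in a library. The transgene was seen in every TgGRK5-MI library: Grk5 measured 1222 ± 472 CPM among the TgGRK5-MI libraries against 60.4 ± 9.50 CPM among the NLC-MI libraries (SD, n = 5 each), with no overlap. Cardiomyocyte markers, among them Myh6, Tnnt2 and Ttn, summed to between 48886 and 126556 CPM, and 0 of the 8 were at 0 in any library.

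No cell cycle gene differed between the groups at an adjusted p under 0.10 (edgeR quasi-likelihood test, Benjamini-Hochberg over 15232 genes), a threshold that 12 genes of all tested passed (0.0788%). The adjusted p of all 41 was 1.00. At an unadjusted p under 0.05, Cdk4 and Cdk2 were higher in TgGRK5-MI compared to NLC-MI (2 of 41, where 1.77% of all genes were higher) and 0 of 41 were lower (2.08% of all genes). Values of the groups overlapped for each of the 41 (1.00% of all genes did not overlap). The fitted log2 fold change was above 0 for 38 of 41, against 50.2% of all genes, with a median of 0.16 on the log2 scale against 0.00 for all genes. That count depended on the libraries kept. Without NLC-MI 5, 19 of 41 were above 0, against 47.3% of all genes, and the median was -0.01. Without TgGRK5-MI 3, the low library of the other group, 38 of 41 were above 0, with a median of 0.30. Without both, a choice made after seeing the data, 36 of 41 were above 0, against 48.8% of all genes. The median was then 0.11.

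The 95% intervals show how much these libraries could resolve. The standard error of a log2 fold change was between 0.12 (Cdk4) and 0.44 (E2f8), with a median of 0.31, and 39 of 41 intervals held 0. The interval for Mki67, from -0.67 to 0.88 on the log2 scale, includes both a lower and a clearly higher level in TgGRK5-MI. The narrowest intervals belonged to genes that varied little between mice, Cdk4 (0.04 to 0.58) and Cenpa (-0.62 to 0.06).

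**Figure D1:**
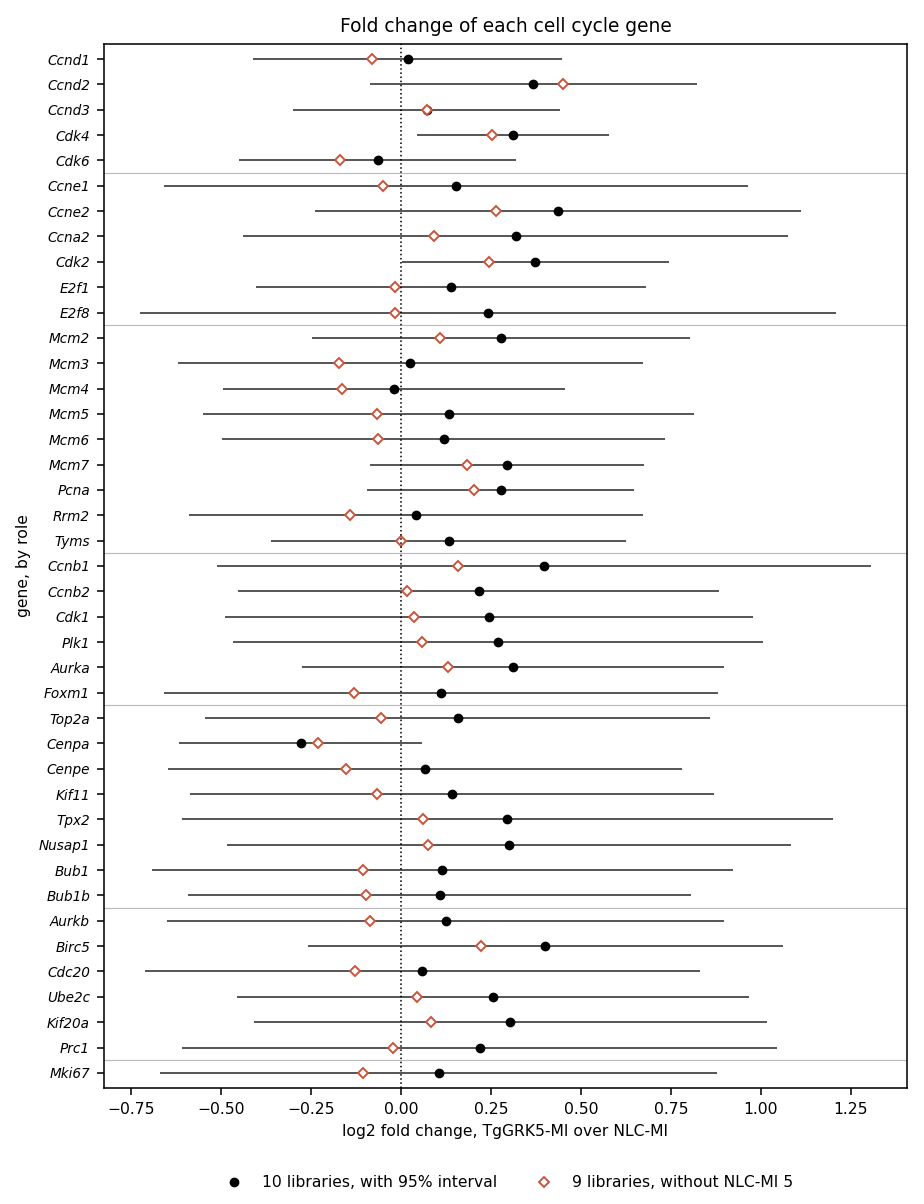
Fitted log2 fold change of each of the 41 genes in TgGRK5-MI over NLC-MI (horizontal axis), with 95% intervals, and the same from 9 libraries without NLC-MI 5 (open diamonds); lines separate the role groups. Filled points lie above 0 for 38 of 41 genes and open diamonds for 19 of 41.

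D-type cyclins and their kinases receive growth signals and were the most even group. Per kilobase of exon, Cdk4 (26.1 CPM), Ccnd1 (23.5 CPM) and Ccnd2 (14.0 CPM) were among the highest of the 41 genes, and Cdk6 (1.75 CPM) among the lowest. Cdk4, the kinase partner of D-type cyclins, lies on chromosome 10 at 127063534-127067920 (GRCm38). It was at 88.7, 74.4, 75.1, 74.9 and 65.0 CPM in NLC-MI 1 to 5 and at 84.7, 104, 91.9, 96.0 and 92.3 CPM in TgGRK5-MI 1 to 5. Only NLC-MI 1 reached into the TgGRK5-MI range, above its lowest library. The log2 fold change was 0.31 (standard error 0.12, edgeR unadjusted p = 0.0263, adjusted p = 1.00), and the exact two-sided permutation test, whose smallest possible p is 0.00794, gave p = 0.0159. Cdk4 shares 641 exon bases with Tspan31 on the other strand. The library kit does not mark strand, so reads there cannot be told apart, and Tspan31 itself measured 78.9 ± 19.4 CPM among the TgGRK5-MI libraries against 68.5 ± 16.2 CPM among the NLC-MI libraries (SD, n = 5 each). The unadjusted p for Cdk4 was 0.0526, 0.0654 and 0.0678 without NLC-MI 2, NLC-MI 5 and TgGRK5-MI 2.

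Ccnd2, a D-type cyclin abundant in the heart, was at 106, 92.9, 138, 96.3 and 143 CPM in NLC-MI and at 170, 104, 204, 149 and 115 CPM in TgGRK5-MI. Its highest library was TgGRK5-MI 3 and its values overlapped widely between the groups. The log2 fold change was 0.37 (standard error 0.21, edgeR unadjusted p = 0.102). Without TgGRK5-MI 2 it was 0.47 (edgeR unadjusted p = 0.0413), the only fit leaving out 1 library with a p under 0.05. Without TgGRK5-MI 3 the edgeR unadjusted p was 0.300. Ccnd1 (log2 fold change 0.02), Ccnd3 (0.07) and Cdk6 (-0.06) differed by less than their standard errors. Over the 10 libraries the 5 genes varied by 1.61-fold to 2.20-fold.

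Cdk2 is the kinase of E- and A-type cyclins at the entry to DNA synthesis and lies on chromosome 10 at 128697939-128705031. It was at 23.6, 21.2, 22.5, 20.5 and 13.1 CPM in NLC-MI and at 21.9, 28.3, 26.4, 27.8 and 26.3 CPM in TgGRK5-MI. TgGRK5-MI 1 fell inside the NLC-MI range and NLC-MI 5 was lowest. The log2 fold change was 0.37 (standard error 0.17, edgeR unadjusted p = 0.0487, adjusted p = 1.00), and the exact two-sided permutation test gave p = 0.0238. The edgeR unadjusted p was under 0.05 in 3 of the 10 fits that left out 1 library. It was 0.0659, 0.0717 and 0.0924 without NLC-MI 2, 4 and 5, and 0.0953, 0.0779, 0.0844 and 0.0765 without TgGRK5-MI 2, 3, 4 and 5; without NLC-MI 5 the log2 fold change was 0.24.

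The cyclins of S phase and E2f8 varied more between libraries. Ccna2, the A-type cyclin of DNA synthesis, shares 510 exon bases with Exosc9 on the other strand. It was at 42.9, 32.7, 48.0, 32.9 and 11.6 CPM in NLC-MI and at 31.1, 42.2, 25.5, 67.8 and 43.1 CPM in TgGRK5-MI. NLC-MI 5 was far below and TgGRK5-MI 4 above the rest, a 5.82-fold span, and the log2 fold change of 0.32 was below its standard error of 0.35. Ccne1, Ccne2 and E2f8 likewise were lowest in NLC-MI 5 and highest in TgGRK5-MI 4, with E2f8, an E2F repressor, at the widest span of all 41 genes (1.77 to 16.3 CPM, 9.20-fold). E2f1, an E2F activator, was at 16.2, 11.5, 10.3, 14.4 and 6.74 CPM in NLC-MI and at 9.93, 16.3, 9.65, 15.6 and 13.9 CPM in TgGRK5-MI. It spanned 2.42-fold, was lowest in NLC-MI 5 and highest in TgGRK5-MI 2, and had a log2 fold change of 0.14 (standard error 0.25). Ccne2 had the largest fold change of the 41 over the 10 libraries (log2 fold change 0.44, standard error 0.31, edgeR unadjusted p = 0.184), and shares 609 exon bases with Ints8 on the other strand. Its log2 fold change was 0.70 without NLC-MI 3 (edgeR unadjusted p = 0.0281), and 0.27 without NLC-MI 5 (edgeR unadjusted p = 0.369), when that of Ccnd2 was 0.45.

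Replication genes varied less between libraries than mitotic genes. Pcna, the sliding clamp of DNA polymerase, had the highest level per kilobase of exon of the 41 genes (35.5 CPM). It was at 85.9, 59.95, 98.5, 78.3 and 63.0 CPM in NLC-MI and at 76.4, 91.8, 85.1, 114 and 99.3 CPM in TgGRK5-MI, so that 3 TgGRK5-MI libraries lay within the NLC-MI range. The log2 fold change was 0.28 (standard error 0.17, edgeR unadjusted p = 0.129). Without NLC-MI 3 it was 0.38 (edgeR unadjusted p = 0.0424), the only fit leaving out 1 library with a p under 0.05. Without TgGRK5-MI 4 the edgeR unadjusted p was 0.284. Mcm7, a helicase subunit, shares 321 exon bases with Ap4m1 and 64 with Cops6, both on the other strand. It was at 26.3, 24.3, 27.5, 30.8 and 17.998 CPM in NLC-MI and at 27.6, 36.3, 23.8, 34.4 and 33.5 CPM in TgGRK5-MI, with NLC-MI 5 lowest (log2 fold change 0.29, standard error 0.17, edgeR unadjusted p = 0.118). The other subunits, Mcm2 to Mcm6, had log2 fold changes between -0.02 (Mcm4) and 0.28 (Mcm2). Rrm2 and Tyms, enzymes of nucleotide supply, had 0.04 and 0.13. The summed level of the 9 genes was 174 CPM in the library NLC-MI 5 and 238 CPM for TgGRK5-MI 3, against 267 to 373 CPM in the other 8 libraries.

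Genes of mitotic entry were low in NLC-MI 5, with a median of -1.32 on the log2 scale relative to each gene's mean. Cdk1, the kinase that starts mitosis, was at 33.4, 23.9, 22.5, 24.9 and 9.16 CPM in NLC-MI and at 20.6, 34.9, 13.6, 27.7 and 38.2 CPM in TgGRK5-MI. Its partner Ccnb1 was at 24.0, 15.6, 11.4, 18.3 and 4.45 CPM in NLC-MI and at 14.4, 27.7, 7.82, 23.5 and 24.0 CPM in TgGRK5-MI. In both genes NLC-MI 5 and TgGRK5-MI 3 were the 2 lowest libraries, and the log2 fold changes of 0.25 (Cdk1, standard error 0.34) and 0.40 (Ccnb1, standard error 0.42) were smaller than their errors. Ccnb2, the other B-type cyclin and the member of this group with the highest level per kilobase of exon (11.1 CPM), was at 21.2, 16.8, 17.9, 16.0 and 6.81 CPM in NLC-MI and at 14.7, 23.4, 9.73, 21.2 and 22.3 CPM in TgGRK5-MI (log2 fold change 0.22, standard error 0.31). Aurka, the kinase of the spindle poles, was at 12.6, 10.6, 10.9, 10.8 and 4.91 CPM in NLC-MI and at 10.2, 13.8, 7.91, 17.1 and 12.8 CPM in TgGRK5-MI. NLC-MI 5 lay apart from the other 4 NLC-MI libraries (log2 fold change 0.31, standard error 0.27, edgeR unadjusted p = 0.268). Plk1 and Foxm1, a mitotic kinase and the transcription factor of G2 genes, had log2 fold changes of 0.27 and 0.11 and were also lowest in NLC-MI 5.

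Chromosome and spindle genes repeated this order, with Cenpa as the exception. Top2a, the topoisomerase that untangles sister chromatids, was at 91.1, 74.3, 78.0, 76.1 and 27.0 CPM in NLC-MI and at 65.4, 90.8, 38.2, 104 and 87.9 CPM in TgGRK5-MI. Tpx2, a spindle assembly factor, was at 40.0, 33.6, 62.5, 34.9 and 11.8 CPM in NLC-MI and at 30.5, 40.5, 21.9, 85.0 and 46.5 CPM in TgGRK5-MI. For both, NLC-MI 5 and TgGRK5-MI 3 were lowest and TgGRK5-MI 4 highest, and the log2 fold changes of 0.16 (Top2a, standard error 0.32) and 0.30 (Tpx2, standard error 0.41) lay within the errors. Cenpe, Kif11, Nusap1, Bub1 and Bub1b, which attach and check chromosomes on the spindle, had log2 fold changes between 0.07 and 0.30.

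Cenpa, the histone variant of centromeres, lies on chromosome 5 at 30666777-30674830. It was at 52.6, 43.9, 39.9, 40.6 and 52.9 CPM in NLC-MI and at 35.7, 42.8, 32.4, 31.8 and 46.9 CPM in TgGRK5-MI. It was highest in NLC-MI 5, the library where 36 of the other genes were lowest, and it spanned only 1.67-fold over the libraries although its promoter holds the same CHR and CCAAT letters as those of Aurka and Ccnb2. Its log2 fold change was the lowest of the 41 genes, -0.28 (standard error 0.15, edgeR unadjusted p = 0.0976). Without TgGRK5-MI 5 it was -0.37 (edgeR unadjusted p = 0.0413), the only fit leaving out 1 library with a p under 0.05. Without TgGRK5-MI 4 the edgeR unadjusted p was 0.199.

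Genes of the chromosomal passenger complex, the APC/C and cytokinesis act at the end of mitosis. Birc5 (survivin), a passenger complex subunit, was at 16.3, 12.3, 10.9, 13.7 and 5.82 CPM in NLC-MI and at 11.5, 19.6, 8.26, 18.5 and 20.0 CPM in TgGRK5-MI (log2 fold change 0.40, standard error 0.30, edgeR unadjusted p = 0.209). Cdc20, the APC/C activator, was at 24.9, 21.3, 14.5, 21.9 and 8.44 CPM in NLC-MI and at 16.4, 32.0, 8.08, 16.5 and 21.9 CPM in TgGRK5-MI (log2 fold change 0.06, standard error 0.35). For Cdc20 the lowest library was TgGRK5-MI 3, with NLC-MI 5 just above it. Aurkb, Ube2c, Kif20a and Prc1 had log2 fold changes between 0.12 and 0.30, each lowest in NLC-MI 5. Kif20a shares 1271 exon bases with Cdc23 on the other strand.

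Mki67 encodes Ki-67, the antigen stained to count cycling cells. It was at 105, 118, 165, 106 and 42.5 CPM in NLC-MI and at 98.8, 108, 54.7, 194 and 122 CPM in TgGRK5-MI. The lowest values were again those of NLC-MI 5 and TgGRK5-MI 3. The highest were those of TgGRK5-MI 4 and NLC-MI 3, which had the fewest counts in all (9114469 and 7968779). The log2 fold change was 0.10 (standard error 0.35, edgeR unadjusted p = 0.772), -0.11 without NLC-MI 5 and -0.16 without TgGRK5-MI 4.

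**Figure D2:**
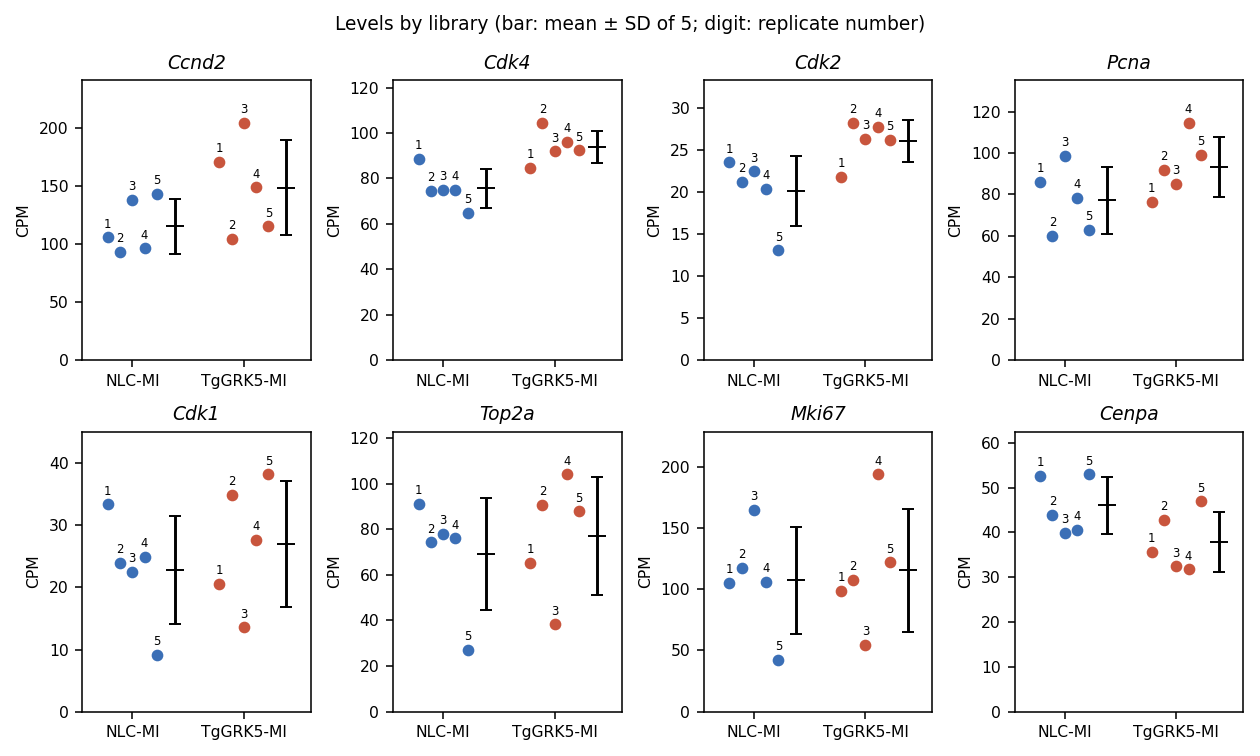
Level of 8 genes in each library in CPM, with the mean and SD of 5 libraries beside each group and the replicate number above each point. Cdk4 and Cdk2 are higher in most TgGRK5-MI libraries, while in Cdk1, Top2a and Mki67 NLC-MI 5 and TgGRK5-MI 3 are the lowest points of their groups.

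These genes varied widely between mice of the same group. The SD of log2 CPM within groups had a median of 0.59 over the 41 genes against 0.39 over all genes tested, and the highest library exceeded the lowest by a median of 3.62-fold against 2.32-fold. NLC-MI 5 was the lowest of the 10 libraries for 36 of 41 genes, with a median of -1.14 on the log2 scale relative to each gene's mean. TgGRK5-MI 3 followed at -0.51, and TgGRK5-MI 4 was highest (0.40), being the top library for 17 genes. How often NLC-MI 5 was lowest over all genes tested was not counted. The counts of genes lowest in NLC-MI 5, here and in the wider list below, therefore do not show a trait particular to cell cycle genes. NLC-MI 5 also had the lowest TMM factor (0.872). The drop in NLC-MI 5 was smallest in the D-type group (-0.37), intermediate in replication genes (-0.99) and largest in the 3 mitotic groups (-1.30 to -1.35). The summed level of mitotic entry genes was 0.22 times that of replication genes in NLC-MI 5 and 0.25 times in TgGRK5-MI 3, against 0.32 to 0.41 times in the other 8 libraries. Genes with CHR letters spanned a median of 3.91-fold over the libraries and those with a window but no CHR letters 2.84-fold (16 genes each). The ranges overlapped (1.67-fold to 9.20-fold and 1.61-fold to 6.22-fold), and NLC-MI 5 was lowest for 14 genes in each set. The sets also differ in role, as CHR letters stood in 0 of 3 D-type and 2 of 8 replication windows. The part of the CHR letters in this spread was not tested.

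**Figure D3:**
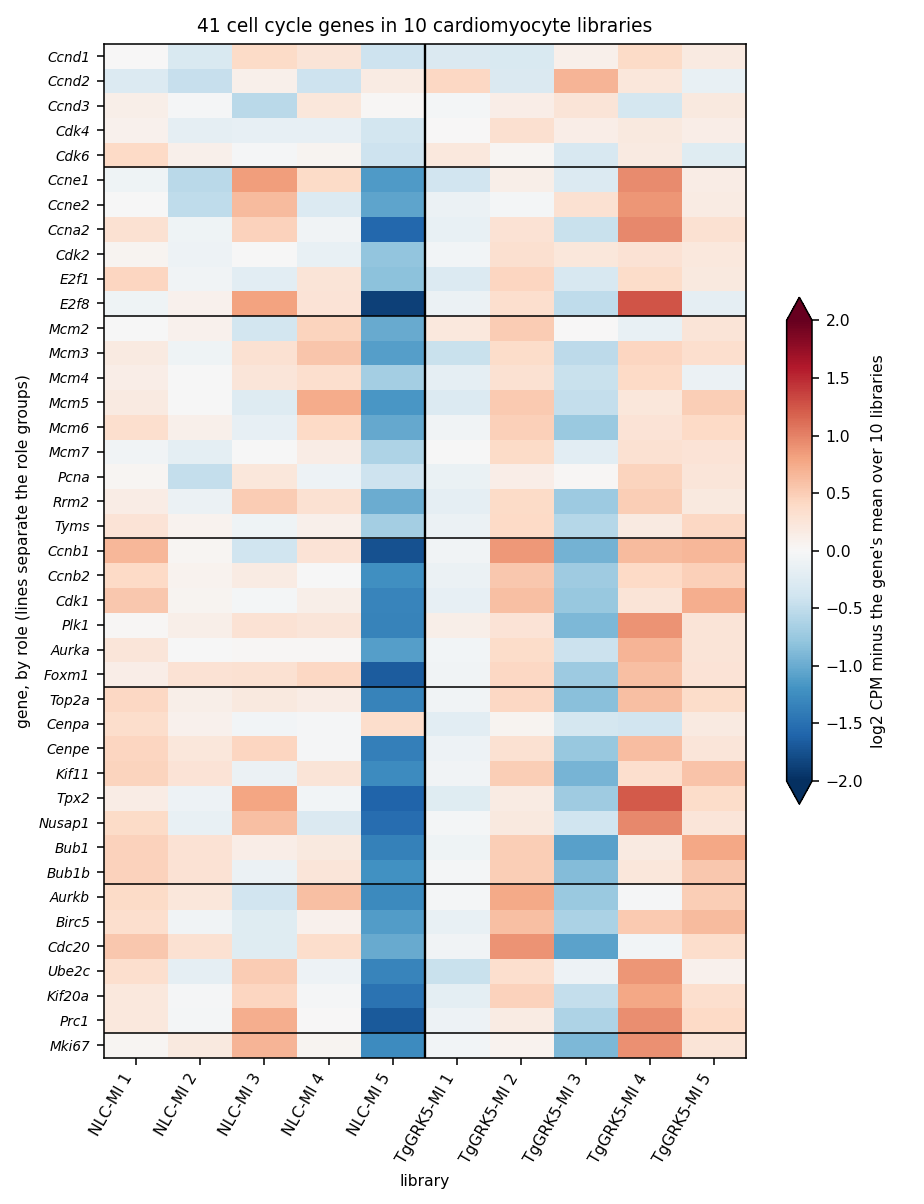
Level of the 41 genes in each library as log2 CPM minus the gene's mean over the 10 libraries, with genes grouped by role and a vertical line between the groups. NLC-MI 5 is lowest for 36 of 41 genes, and the D-type genes at the top are among the palest rows, as is Cenpa.

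Summed markers of some cell types moved with these libraries. The 36 genes outside the D-type group summed to 464 CPM in the library NLC-MI 5 and to 654 CPM in TgGRK5-MI 3, against 861 to 1396 CPM in the other 8. Cardiomyocyte markers had their highest sums in the same 2 libraries, at 126556 and 104558 CPM against 48886 to 80021 CPM. Taken singly, Myh6, Tnnt2, Tnni3, Pln and Mb had their 2 highest values there, while Actc1, Ttn and Ryr2 did not. Fibroblast markers (8 genes, among them Col1a1 and Pdgfra) had their lowest sums in these 2 libraries, at 4031 and 4198 CPM against 5817 to 24766 CPM. Among them, Dcn and Tcf21 did not have their 2 lowest values there. Macrophage and monocyte markers (10 genes, among them Cd68 and Csf1r) reached 750 CPM in the library NLC-MI 5 and 1190 CPM for TgGRK5-MI 3, against 763 to 2464 CPM in the other 8. Endothelial markers (6 genes) had their highest sums in TgGRK5-MI 4 and NLC-MI 3, at 1413 and 1324 CPM. They were lowest in TgGRK5-MI 1 at 656 CPM, with 665 CPM for NLC-MI 5 and 808 CPM for TgGRK5-MI 3. None of the fibroblast, macrophage, endothelial or smooth muscle markers was at 0 in any library, while Ly6g and Retnlg among 5 neutrophil markers and Cd3e and Cd3g among 6 lymphocyte markers were at 0 in at least 1.

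Between the groups, 50.2% of all genes had a log2 fold change above 0 (47.3% without NLC-MI 5). Macrophage and monocyte markers had 10 of 10 above 0 (8 of 10 without NLC-MI 5). Their sums were 750 to 2179 CPM for NLC-MI libraries and 1190 to 2464 CPM for TgGRK5-MI libraries. Fibroblast markers had 4 of 8 above 0 (3 of 8 without NLC-MI 5), with sums of 4031 to 24098 and 4198 to 24766 CPM. Endothelial markers had 3 of 6 above 0 (1 of 6 without NLC-MI 5), with sums of 665 to 1324 and 656 to 1413 CPM. Smooth muscle and pericyte markers had 2 of 5 above 0 (1 of 5 without NLC-MI 5), with sums of 741 to 1459 and 1056 to 1640 CPM. Cardiomyocyte markers had 3 of 8 above 0 (5 of 8 without NLC-MI 5), with sums of 48886 to 126556 and 52051 to 104558 CPM. Of these 8, 1 was lower at an unadjusted p under 0.05 (edgeR), as were 2.08% of all genes. Of the markers tested, 2 of 3 for neutrophils, 1 of 2 for lymphocytes and 0 of 4 for red cells were above 0. The part of these cell types in the values of the cell cycle genes was not tested.

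**Figure D4:**
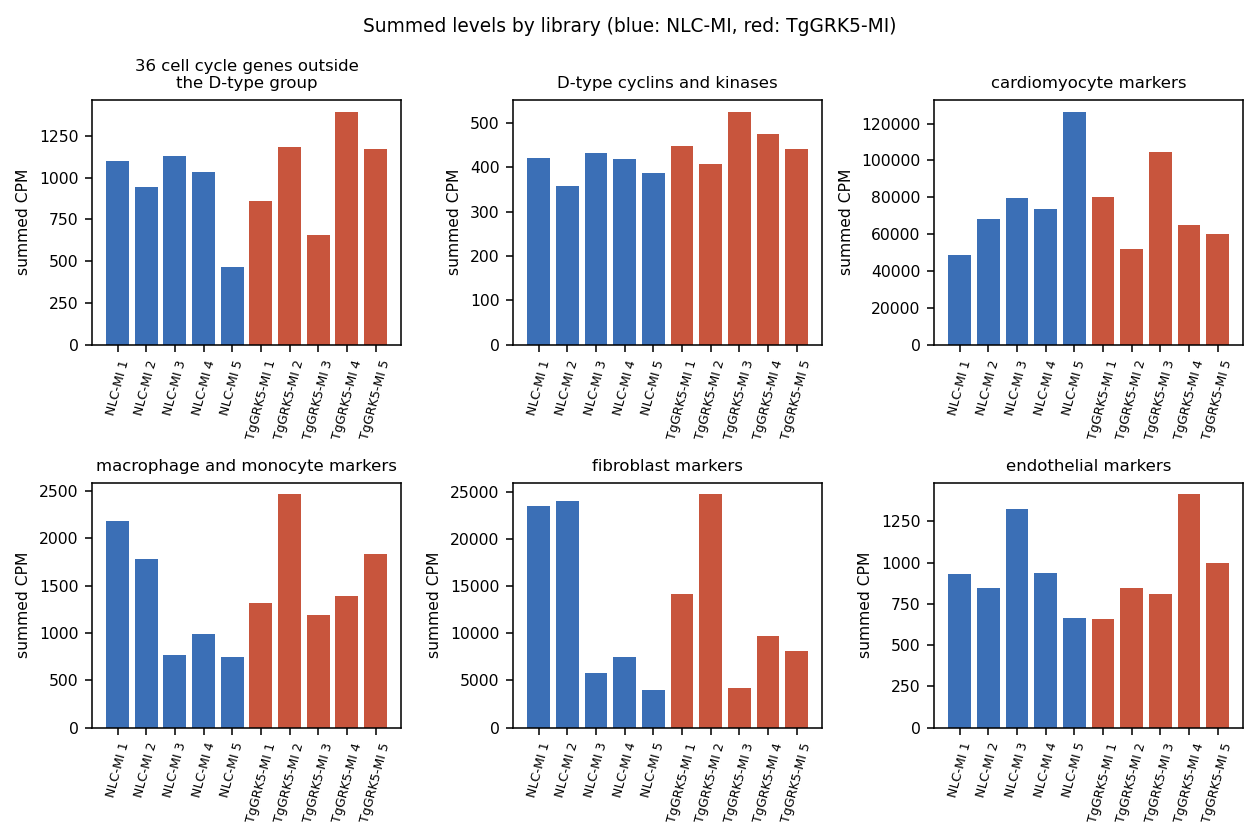
Summed CPM in each library of the 36 cell cycle genes outside the D-type group, the 5 D-type genes and 4 marker lists (blue NLC-MI, red TgGRK5-MI; axes start at 0). The bars of the 36 genes are shortest in NLC-MI 5 (464 CPM) and TgGRK5-MI 3 (654 CPM), where the cardiomyocyte bars are tallest.

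A wider list held 112 other genes of the cell cycle. Of its 110 genes tested, 0 passed an adjusted p under 0.10 (edgeR), 1 was higher at an unadjusted p under 0.05 (1.77% of all genes were) and 0 were lower (2.08% of all genes). A log2 fold change above 0 was found for 80 of 110, against 50.2% of all genes, with a median of 0.09. Without NLC-MI 5 it was found for 47 of 110, against 47.3% of all genes, with a median of -0.04. The 1 gene was Prim1, the catalytic subunit of DNA primase, at 6.92, 6.32, 6.15, 7.37 and 4.12 CPM in NLC-MI and at 7.25, 9.73, 7.996, 9.69 and 9.61 CPM in TgGRK5-MI. Only TgGRK5-MI 1 lay within the NLC-MI range. For Prim1 the log2 fold change came to 0.52 (standard error 0.19, edgeR unadjusted p = 0.0196, adjusted p = 1.00), and the exact two-sided permutation test gave p = 0.0159. Among mitosis genes of this list, 36 of 48 had a log2 fold change above 0 (16 of 48 without NLC-MI 5) and 39 of 48 were lowest in NLC-MI 5. Replication genes had 22 of 29 above 0 (16 of 29 without that library) and 18 of 29 lowest there. CDK inhibitors and pocket proteins restrain the cycle, and their list also held Ccng1, Ccng2, Wee1 and Pkmyt1. Of this list, 9 of 14 were above 0 (4 of 14 without NLC-MI 5) and 5 of 14 were lowest in that library. E2F, DREAM and MYB factors had 10 of 14 above 0 (8 of 14 without it) and 9 of 14 lowest there. The other cyclins and kinases had 3 of 5 above 0 in both fits and 1 of 5 lowest in NLC-MI 5.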

How the data were processed

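RNA-seq of 10 cardiomyocyte libraries was analysed. The authors deposited whole-number counts per Ensembl gene, not normalized; per the labels the tools were Bowtie2, RSEM 1.2.31 and DESeq2 on mm10, without a strand-marking kit. RSEM shares reads between similar genes, so pseudogene copies (Ccnb1-ps, Pcna-ps2) and exons overlapping on the other strand leave counts uncertain. Symbols and positions came from GENCODE M21 (GRCm38) and promoters from RefSeq. The members and lists were chosen with earlier results of these data known.

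In edgeR 4.0.16 (R 4.3.3), counts were scaled by TMM, filtered with filterByExpr (15232 genes of 28506 with a count) and compared by the quasi-likelihood F test with Benjamini-Hochberg adjustment. Thresholds were an adjusted p of 0.10, as in the study, and an unadjusted p of 0.05. A prior count of 2 entered log2 CPM; the exact two-sided permutation test used all 252 placements of 5 libraries. The procedure was tested on simulated data. Replicate libraries differed beyond sampling noise, so none was merged. At 3 counts the floor was 0.121 to 0.393 CPM, covering counting error only.

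All 41 members were accounted for. Values by library were given for members past an unadjusted p of 0.05, the member with the smallest p and the highest level per kilobase in each role, and Mki67, Top2a, Cdk1, Ccnb1, Ccnd2 and Pcna; the wider list was treated by the first criterion. Promoters were those of the mitotic members with the smallest p, Ccnb2 and Cdk1. Alternatives were DESeq2 1.42.0, limma-voom 3.58.1, scaling by RLE size factors or by library size alone, a robust fit, other filters, a replicate block and leaving out each library.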

Additional observations from a re-analysis of the deposited data

Results flagged for a closer look

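Within the 5 NLC-MI libraries, NLC-MI 5 stood far below the others for 5 cell cycle genes and 1 sum, where its gap to the nearest library, as a share of the group's whole range, passed the 95% critical value of 0.710 (Dixon). The share was 0.736 for Aurka, 0.737 for Top2a, 0.754 for Plk1, 0.763 for Foxm1, 0.711 for Bub1 and 0.755 for the summed level of mitotic entry genes. Outside the cell cycle, the summed red cell markers (haemoglobins and Alas2) in NLC-MI 3, which were at 412 CPM while the remaining 4 libraries had 9.49 to 30.5 CPM, gave 0.948. Together 7 of the 116 groups of 5 values examined passed, and chance alone gives about 1 in 20; the genes share libraries and are not independent.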

How the results depend on the processing

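No member passed an adjusted p under 0.10 under any alternative, the smallest adjusted p being 0.690. Members higher at an unadjusted p under 0.05 numbered 2 with edgeR, and also 2 with DESeq2, limma-voom or the robust fit. They numbered 1 with RLE size factors or at least 10 counts in every library. They numbered 0 with library size alone, with no filter, with the replicate block, and, both chosen after seeing the data, in 8 libraries without NLC-MI 5 and TgGRK5-MI 3 or in the 7 libraries with the most counts. Leaving out 1 library gave 0 to 4 higher and 0 to 1 lower. In the wider list 2 genes were higher in the 8 libraries, and 1 to 3 when 1 library was left out; 47 (without NLC-MI 5) to 87 of its genes were then above 0. Prim1 had an unadjusted p of 0.0635 in the 7 libraries. The median log2 fold change of the members ran from -0.01 (without NLC-MI 5) to 0.30 (without TgGRK5-MI 3), and members above 0 from 19 to 39; in the 8 libraries they were 0.11 and 36. Over all genes, 12 passed an adjusted p under 0.10 with edgeR, 69 with DESeq2, 18 with library size alone or no filter, 8 with at least 10 counts in every library or the block, 7 in the 8 libraries, 6 in the 7, and 3 to 10 when 1 library was left out. At an unadjusted p under 0.05, all genes numbered 586 with edgeR, 1163 with no filter and 457 to 1069 when 1 library was left out. The causes were not tested.

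The labels give no link between same-numbered libraries beyond the number. The correlations of their deviations were 0.0717, 0.662, 0.381, -0.341 and 0.0848 for replicates 1 to 5. Of the 5 pairs, 1 (replicate 2) matched best with its own number. Whether some pairs shared a batch is not known. Under the replicate block, Cdk4 had an unadjusted p of 0.0612 and Cdk2 of 0.0641, and the median was 0.23.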
